A study of Mus musculus with 8 samples.

Results

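Oxidative phosphorylation subunits were examined in the lungs of mice given LPS alone (LPS group, n = 4) or tangeretin and then LPS (LPS + Tan group, n = 4). The members were all genes of the deposited tables whose symbol is that of a numbered nuclear subunit of complexes I to V (Nduf, Sdh, Uqcr, Cox and Atp5 names), together with the 13 subunits encoded by mitochondrial DNA. This gave 100 of 24584 genes, of which 87 are nuclear and 13 are mitochondrial. The animals were male ICR mice, a stock without engineered alleles, 6 to 8 weeks old by the study's methods. Both groups received LPS from Escherichia coli intraperitoneally at 5 mg/kg, a model of septic lung injury, and the LPS + Tan group also received tangeretin, a citrus flavone, at 50 mg/kg by the same route 30 min earlier. Lung tissue was taken 12 h after LPS. Mice without LPS, and mice with tangeretin but no LPS, were not part of the samples used here, so every comparison is between 2 LPS-treated groups. The question was whether tangeretin given before LPS changed the transcripts of the respiratory chain and the ATP synthase.

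Oxidative phosphorylation takes electrons from NADH at complex I and from succinate at complex II, passes them through complex III and cytochrome c to complex IV, where oxygen is reduced, and uses the proton gradient built on the way to make ATP at complex V. Most subunits are encoded in the nucleus and imported, whereas a core set is encoded by the small circular genome inside the organelle, transcribed from both strands as long precursors. Complex II is built of nuclear subunits alone. In the lung the pathway is used by alveolar epithelium, endothelium, mural cells and resident macrophages, and several subunits of complex IV have a second isoform restricted to certain tissues.

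The count totals of the 8 samples lay between 38895654 and 39931970 reads. Alveolar type 2 markers, the defining genes of the surfactant-making epithelium, summed to between 7884 and 13114 CPM (counts scaled to a common library total) in the 8 samples, and skeletal muscle and fat markers to at most 11.2 and 10.3 CPM. By estimate, all 5 erythroid and all 5 ciliated cell markers were lower in the LPS + Tan group, and all 6 neutrophil markers were higher. The median log2 fold changes were -0.55, -0.079 and 0.084, and 4 of the 6 neutrophil markers lay within 0.1 of 0. In the edgeR test, 0, 1 and 0 of them had an unadjusted p under 0.05, where 5.12% of all genes did. CPM values were scaled by the TMM factors of edgeR, which lay between 0.959 and 1.05. The 2 groups were compared with the quasi-likelihood test of edgeR on all 15706 genes that passed its count filter, with Benjamini-Hochberg adjustment over all of them. The labels only number the mice of each group, so p-values measure the spread between these samples. In bulk tissue, fewer cells of a type and less RNA per cell cannot be told apart.

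No nuclear subunit passed an adjusted p of 0.05, and 1 of the 85 nuclear subunits tested, Cox4i2, was higher in the LPS + Tan group at an unadjusted p of 0.05. Across all genes tested, 5.12% had an unadjusted p below 0.05 by this test, 2.87% higher and 2.25% lower in the LPS + Tan group, so that 56.1% of these calls were higher with TMM scaling and 73.2% with total counts alone. The mitochondrial subunits were all lower in the LPS + Tan group by estimate with TMM scaling, while COX3 turned to the other side of 0 with total counts alone. Of these 13, ND5 and ND4L were lower at an unadjusted p of 0.05. No member of either genome passed both of the study's thresholds, an unadjusted p below 0.05 together with a log2 fold change beyond 1 in either direction, which 0.649% of all genes passed. The share of all genes with an adjusted p below 0.05 was 0.0%, and 0 members passed it in any alternative test, although DESeq2 called 35 genes and the likelihood ratio test of edgeR called 23 genes among all genes. In the edgeR test, the lowest value of any member after Benjamini-Hochberg adjustment was 0.924.

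**Figure D1:**
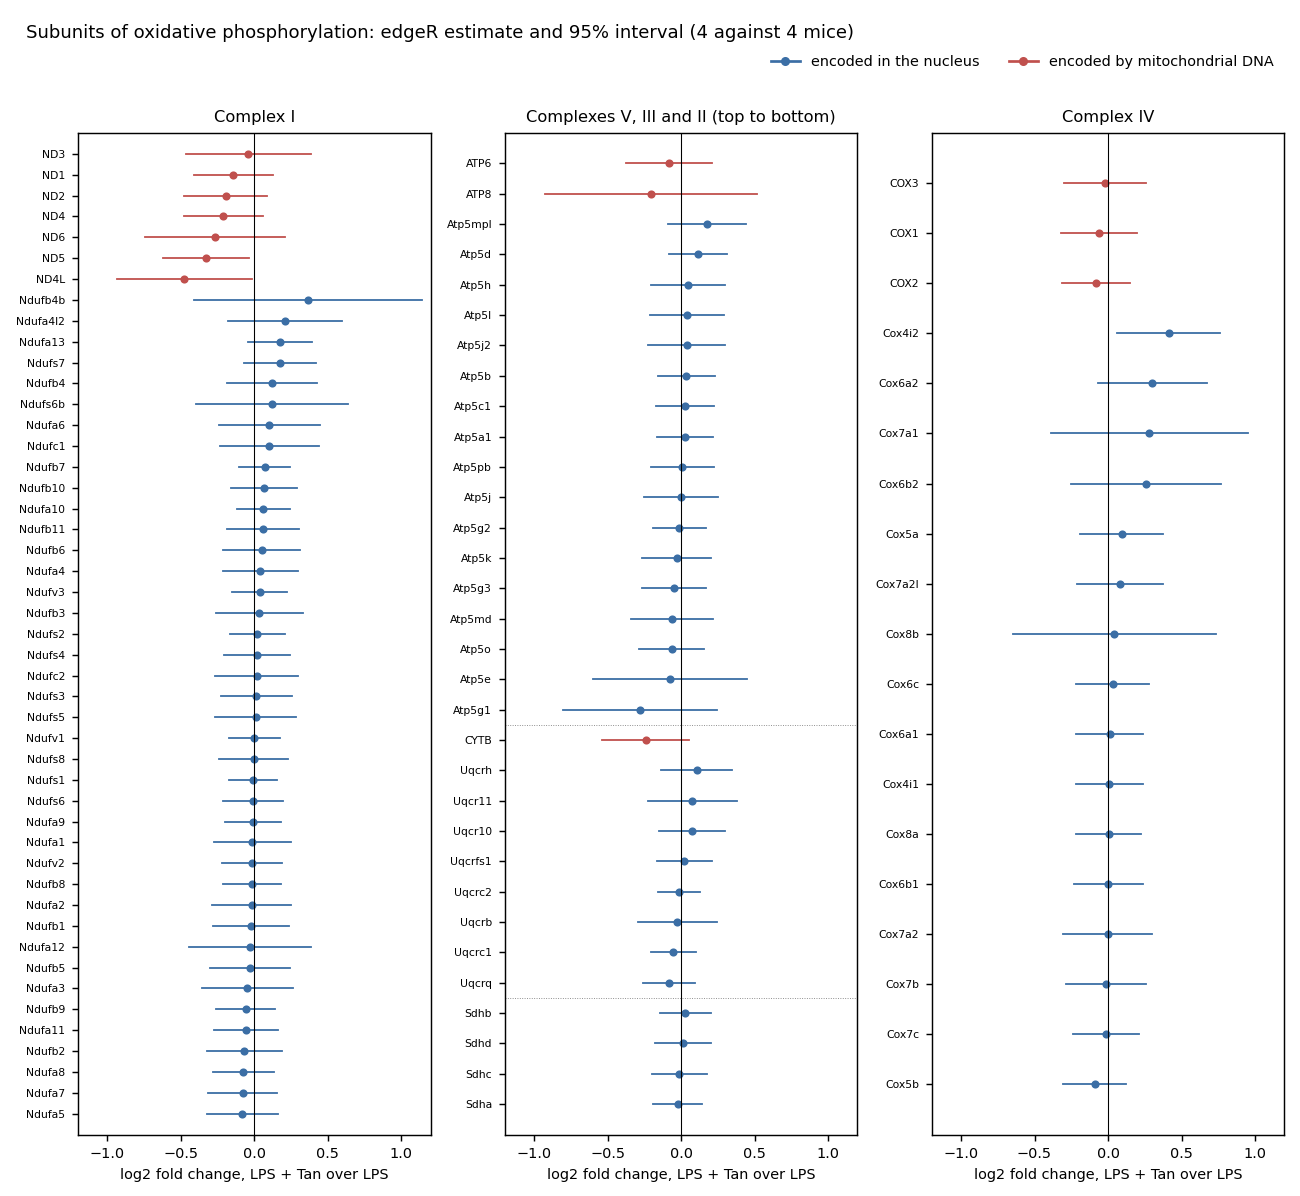
Log2 fold change of LPS + Tan over LPS for the 98 tested subunits (x axis), with genes on the y axis, points for the edgeR estimate and lines for its 95% interval, in 3 panels by complex. Nuclear subunits (blue) lie around 0 with a median of 0.012, and the 13 mitochondrial subunits (red) lie below 0 with TMM scaling, with a median of -0.19.

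The mitochondrial genes are shown with sequences first, because the level per length differed by position and part of the genome has an annotated nuclear copy. COX1, ND1, CYTB, ND2, ND5 and ND4 had mean FPKM values (reads scaled by gene length and by the total of the sample, a level per length) between 669 and 4096. COX2, ATP8, ATP6, COX3, ND3 and ND4L, which lie next to each other between COX1 and ND4 on the mitochondrial genome, had mean FPKM values between 5.61 and 53.3. The lowest of the first 6 was 12.5-fold above the highest of the second 6. These 6 adjacent genes held 0.658% to 0.807% of the mitochondrial subunit counts of a sample.

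In the transcript annotation of the same build, GENCODE on GRCm38, chromosome 1 holds a row of unprocessed pseudogenes copied from this stretch, on the minus strand. COX2 (Gm28661, chr1:24614885-24615565), ATP6 (Gm10925, chr1:24613974-24614651), COX3 (Gm28437, chr1:24613189-24613971) and ND4L (Gm10222, chr1:24612407-24612700) are identical to their copies over the aligned bases, and ND3 (Gm28438, chr1:24612775-24613119) has 1 mismatch in 345 bases. Of all windows of 100 bases along a gene, the share also found in another gene was 99.5% for COX2, 99.5% for ATP6, 99.9% for COX3, 97.6% for ND3 and 98.5% for ND4L. It was 60.8% for ND4, 30.8% for COX1, 3.2% for ND2, and 0 for ND1, ND5, ND6, CYTB and ATP8. Reads from such windows cannot be assigned to a gene by sequence, and how the authors' counting treated them is not given in the sources used here. ATP8, which also had a low level, shared 0 windows with an annotated gene, and the bases of chromosome 1 between the annotated copies were not used here. The part of shared reads in the low levels was not tested.

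The stretches below show the edge of the copy, in COX1 (bases 6381 to 6500 of the mitochondrial genome, plus strand) and in its copy Gm29216 (chr1:24616078-24616197, minus strand), 5′ to 3′. Capitals mark the 6 mismatched bases, which all lie between positions 3 and 13 of the stretch, after which the 2 sequences are the same. The start of COX3 (bases 8607 to 8726, plus strand), which reads the same in Gm28437 (chr1:24613852-24613971, minus strand), is shown for a gene inside the copied stretch.
COX1: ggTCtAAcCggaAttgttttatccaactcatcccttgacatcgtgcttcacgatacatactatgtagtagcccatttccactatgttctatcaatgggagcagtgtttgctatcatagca
Gm29216: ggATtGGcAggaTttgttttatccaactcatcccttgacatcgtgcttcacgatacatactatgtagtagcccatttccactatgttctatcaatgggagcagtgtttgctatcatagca
COX3: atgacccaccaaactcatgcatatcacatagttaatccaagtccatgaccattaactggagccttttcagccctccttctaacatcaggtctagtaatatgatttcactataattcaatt

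**Figure D2:**
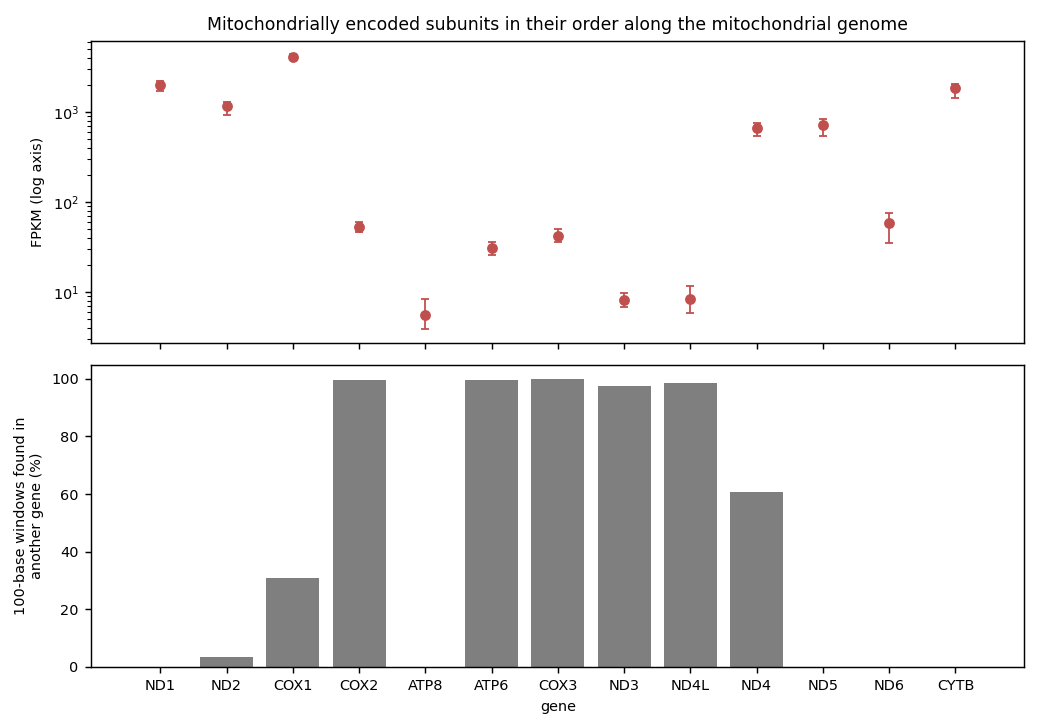
Upper panel: FPKM (y axis, log scale) of the 13 mitochondrial subunits in their order along the mitochondrial genome (x axis), with points for the mean and lines for the lowest and highest of 8 samples. Lower panel: percent of 100-base windows of each gene found in another annotated gene. The 6 genes from COX2 to ND4L lie at or below a mean of 53.3 FPKM, and 5 of them share at least 97.6% of their windows.

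The order of mitochondrial levels, by mean FPKM over the 8 samples, was COX1 (4096), ND1 (2006), CYTB (1851), ND2 (1169), ND5 (726), ND4 (669), ND6 (58.3), COX2 (53.3), COX3 (42.1), ATP6 (31.0), ND4L (8.41), ND3 (8.25) and ATP8 (5.61). Neighbours in this order overlapped over the 8 samples between ND1 and CYTB, ND5 and ND4, ND6 and COX2, COX2 and COX3, COX3 and ATP6, ND4L and ND3, and ND3 and ATP8. ND6, the only subunit gene on the other strand, lies beside ND5 and shares 14 bases with it. ATP8 and ATP6 share 43 bases and ND4L and ND4 share 7 bases, so that reads there could be counted for either gene.

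ND5, a membrane subunit of complex I with a proton channel (bases 11742 to 13565 of the mitochondrial genome), measured 1424, 1446, 1617 and 1424 CPM in the LPS samples and 1235, 1391, 932 and 1150 CPM in the LPS + Tan samples. All 4 LPS samples were above all 4 LPS + Tan samples, the sole member of which this held, and LPS + Tan replicate 3 was the lowest. Groups that did not overlap made up 1.15% of all genes on the lower side and 1.58% on the higher side. The log2 fold change of ND5 was -0.33 ± 0.13 (SE), with an unadjusted p of 0.0311 (0.924 after Benjamini-Hochberg adjustment) in the edgeR test. Its unadjusted p stayed below 0.05 in 14 of 19 alternatives, and was above it with the replicate number as a block and without LPS replicate 2 or 3 or LPS + Tan replicate 3 or 4.

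ND4L, a small membrane subunit of complex I, measured 2.30, 3.47, 3.16 and 2.72 CPM in the LPS samples and 2.51, 2.19, 1.65 and 2.03 CPM in the LPS + Tan samples. The groups overlapped through LPS replicate 1 and LPS + Tan replicate 1. Its log2 fold change was -0.48 ± 0.21 (SE), with an unadjusted p of 0.0432 (0.924 after Benjamini-Hochberg adjustment) in the edgeR test. It lies in the copied stretch, and without any of LPS replicates 2, 3 and 4 or LPS + Tan replicates 2, 3 and 4 its unadjusted p was above 0.05, as it was with total counts alone and with the replicate block.

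The other complex I genes of the mitochondrial genome did not pass an unadjusted p of 0.05. ND1, which lies at the joint of the membrane and the matrix arm, measured 1998, 1890, 2236 and 1954 CPM in the LPS samples and 1761, 2020, 1558 and 1986 CPM in the LPS + Tan samples, so that the groups overlapped. ND2 lay between 1184 and 1389 CPM in the LPS group and between 916 and 1300 CPM in the LPS + Tan group, and ND4 between 926 and 1068 CPM and between 718 and 1016 CPM. Their log2 fold changes were -0.14 ± 0.12 (SE) for ND1, -0.19 ± 0.13 for ND2 and -0.21 ± 0.12 for ND4. ND6 lay between 31.4 and 35.5 CPM in the LPS group and spread from 17.3 to 40.5 CPM in the LPS + Tan group, with a log2 fold change of -0.27 ± 0.21 (SE), which was -0.51 without LPS + Tan replicate 4 and -0.097 without LPS + Tan replicate 3. ND3, at 2.29 to 3.54 CPM, had a log2 fold change of -0.041 ± 0.19 (SE).

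CYTB, the sole mitochondrially encoded subunit of complex III and the site of ubiquinol oxidation, measured 2371, 2218, 2427 and 2191 CPM in the LPS samples and 1857, 2110, 1548 and 2276 CPM in the LPS + Tan samples. Replicate 4 of the LPS + Tan group lay within the LPS range and the other 3 lay below it. The log2 fold change was -0.24 ± 0.13 (SE), with an unadjusted p of 0.101 in the edgeR test. In the catalytic core of complex IV, COX1, which holds the oxygen-reducing centre, measured 6103, 6349, 6555 and 6846 CPM in the LPS samples and 6023, 6572, 5782 and 6442 CPM in the LPS + Tan samples, a log2 fold change of -0.059 ± 0.12 (SE). The log2 fold change of COX2, which takes electrons from cytochrome c, was -0.083 ± 0.10 (SE), and that of COX3 was -0.024 ± 0.13. For the proton channel subunit ATP6 and its neighbour ATP8 of complex V, the log2 fold changes were -0.085 ± 0.13 (SE) and -0.21 ± 0.32, the latter at 0.804 to 1.78 CPM.

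**Figure D3:**
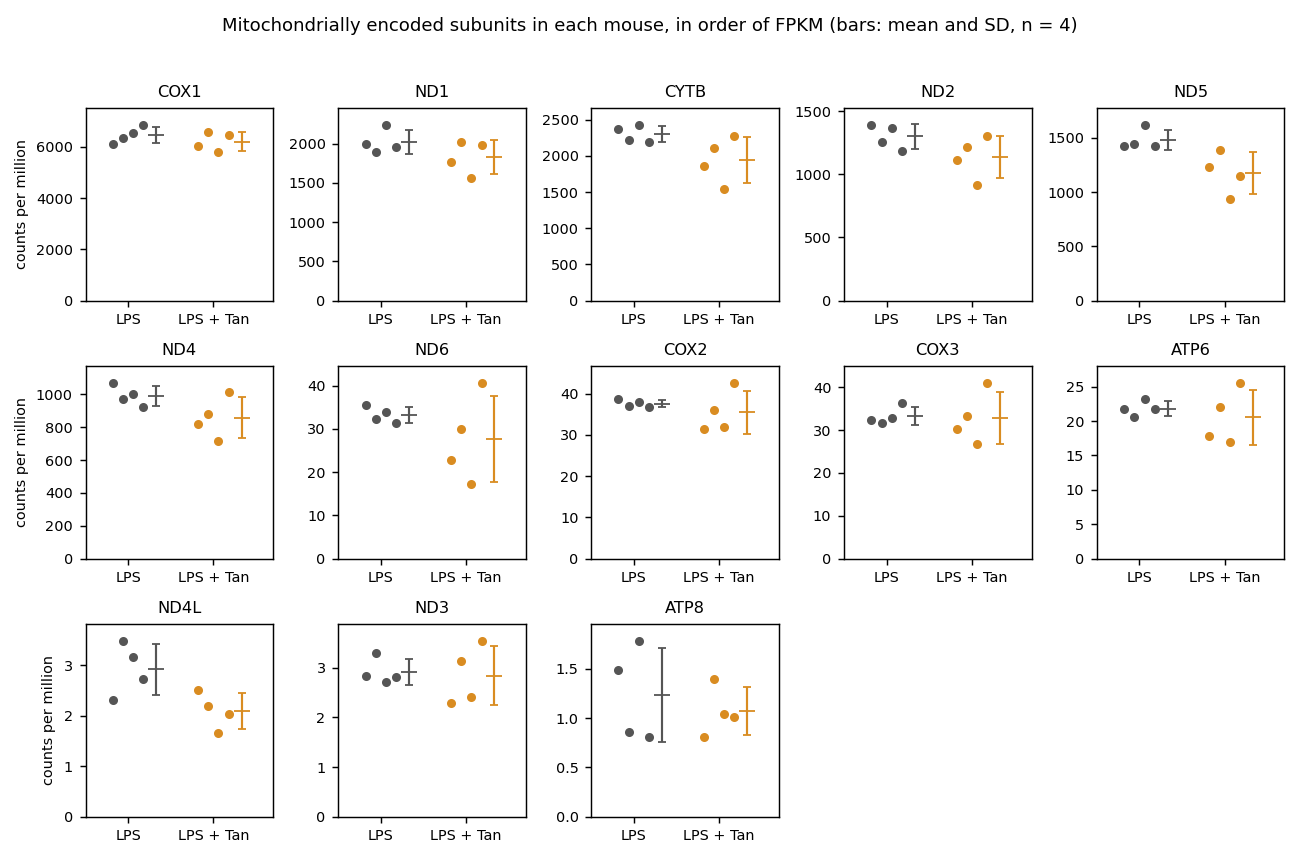
CPM (y axis, from 0) of each mitochondrial subunit in every mouse, for the LPS group (grey) and the LPS + Tan group (orange), with the mean and SD of 4 mice beside the points, in order of FPKM. Only in the ND5 panel do the 4 LPS + Tan points all lie below the 4 LPS points. In ND1, ND2, ND4, ND5, ND6 and CYTB the lowest point is LPS + Tan replicate 3.

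As a whole, the 13 genes took 1.43%, 1.44%, 1.47% and 1.45% of all counts in the LPS samples and 1.33%, 1.44%, 1.22% and 1.39% in the LPS + Tan samples. The groups overlapped through LPS + Tan replicate 2, and the spread was wider in the LPS + Tan group (SD 0.0950 against 0.0196 percentage points). The median log2 fold change over the 13 genes was -0.19, beside 0.0070 over all genes tested, and ranged from -0.24 to -0.089 when each sample was left out in turn. LPS + Tan replicate 3 held the lowest value of the 8 samples in 10 of the 13 genes (76.9%). It did so in 9.12% of all genes with a count in every sample. Without this sample the median over the 13 genes was -0.097. Without LPS + Tan replicate 4, the genes lower at an unadjusted p of 0.05 were ND4, ND6, COX2 and CYTB, 4 in place of 2, and neither ND5 nor ND4L was among them. In the same setting the lower calls over all genes went from 353 to 727. No sum or median over the members was tested. Counts on mitochondrial subunits were 2.60, 2.68, 2.92 and 2.84 times those on the nuclear subunits in the LPS samples and 2.38, 2.90, 2.30 and 2.33 times in the LPS + Tan samples, which overlap through replicate 2 of the LPS + Tan group.

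Among nuclear subunits the estimates were close to 0. The median log2 fold change over the 85 tested genes was 0.012. Of them, 69 lay within 0.1 of 0, as did 7459 of all 15706 genes tested. The 95% interval lay within 0.5 of 0 for 75 of the 85 (88.2%, against 55.5% of all genes tested). The median SE was 0.108 for the nuclear subunits and 0.145 over all genes, and these subunits were also more abundant, as given below. The part of abundance in the narrower intervals was not tested. With TMM scaling 49 of the 85 were above 0 and 36 below. With total counts alone 70 were above and 15 below, and without LPS + Tan replicate 4 16 were above and 69 below. Without that sample, 4 nuclear subunits were lower at an unadjusted p below 0.05 (Atp5g1, Atp5md, Cox5b and Ndufa8, of which Atp5md and Ndufa8 are named after their values were seen), where 4.56% of all genes were lower at that threshold. The intervals that reached beyond 0.5 belonged to Cox4i2, Cox6a2, Cox6b2, Cox7a1, Cox8b, Ndufa4l2, Ndufb4b, Ndufs6b, Atp5g1 and Atp5e. The groups did not separate for any nuclear subunit. Cox8c, a testis isoform, had 1 count in all 8 samples, and Ndufb4c had 5 to 11 counts per sample, so that neither was tested.

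Nuclear subunits were abundant in the lung, with a median of 51.6 FPKM against 5.05 FPKM over all genes tested, and 77 of 85 had a mean above 10 FPKM. The median FPKM was 38.4 for complex I, 57.1 for complex II, 54.0 for complex III, 73.6 for complex IV and 94.2 for complex V. The 8 genes at or below 10 FPKM were Ndufs6b, Ndufb4b, Cox8b, Cox7a1, Cox6b2, Cox6a2, Ndufa4l2 and Ndufa11. The first 7 are copies or tissue isoforms of other subunits, and for Ndufa11 the gene length behind FPKM, 2661 bases, was 2.90 times its matched transcript. Of 86 nuclear subunits with a matched transcript, 55 shared no 100-base window with another gene and 2 shared more than 50% (Atp5l and Ndufb4c).

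Complex I, which takes electrons from NADH, was represented by 40 tested nuclear genes, with a median log2 fold change of 0.013 and 0 genes at an unadjusted p of 0.05 in either direction. Ndufa4 had the highest level (157 FPKM), although the protein named for complex I is now counted with complex IV. Ndufa4 measured 81.4, 77.2, 77.4 and 71.8 CPM in the LPS samples and 76.9, 66.3, 76.1 and 97.6 CPM in the LPS + Tan samples, where replicate 4 was the highest of all 8 samples. Its log2 fold change was 0.042 ± 0.11 (SE). The lowest estimate was that of Ndufa5, an accessory subunit of the matrix arm, at 18.1 to 21.8 CPM in the LPS group and 17.3 to 22.1 CPM in the LPS + Tan group (log2 fold change -0.081 ± 0.11 SE). The highest was that of Ndufb4b, an intronless gene of 471 bases at chr19:25033108-25033578 (GRCm38.p6) that resembles Ndufb4, with 0.818 to 1.79 CPM in the LPS group and 0.992 to 2.21 CPM in the LPS + Tan group (0.37 ± 0.35 SE). The similarly intronless Ndufs6b had the lowest level, at 2.75 FPKM (log2 fold change 0.12 ± 0.23 SE).

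Complex II, which oxidises succinate and belongs to the citric acid cycle as well, had 4 genes. Their median log2 fold change was close to 0 (-3.2e-05), and all 4 intervals lay within 0.5 of 0. Sdha, the flavoprotein that binds succinate, measured 188, 184, 176 and 174 CPM in the LPS samples and 185, 170, 171 and 183 CPM in the LPS + Tan samples, and the groups overlapped (log2 fold change -0.024 ± 0.074 SE). The iron-sulphur subunit Sdhb had the highest level and the highest estimate (62.8 FPKM, 0.029 ± 0.077 SE), and the membrane anchor Sdhd the lowest level (51.3 FPKM, 0.014 ± 0.086 SE).

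Complex III was represented by 8 nuclear genes, without Cyc1, which was counted with the electron carriers. Their median log2 fold change was 0.0037. The extremes among these genes were Uqcrh, the hinge protein, also the most abundant (140 FPKM), and Uqcrq, a small membrane subunit, the least abundant (33.7 FPKM). Uqcrh lay between 70.6 and 76.3 CPM in the LPS group and between 67.9 and 97.3 CPM in the LPS + Tan group (log2 fold change 0.11 ± 0.11 SE), and Uqcrq between 49.0 and 56.6 CPM and between 45.9 and 53.6 CPM (-0.084 ± 0.079 SE). Both pairs of ranges overlapped.

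Complex V, the ATP synthase, had 17 tested nuclear genes and a median log2 fold change of 0.0087. Atp5b, the catalytic beta subunit and the most abundant nuclear member (290 FPKM), measured 562, 527, 553 and 514 CPM in the LPS samples and 596, 526, 520 and 569 CPM in the LPS + Tan samples, with overlapping groups (0.036 ± 0.088 SE). The highest estimate was that of Atp5mpl, a small peripheral subunit, at 27.5 to 32.1 CPM in the LPS group and 27.4 to 40.5 CPM in the LPS + Tan group (0.17 ± 0.12 SE). The lowest was that of Atp5g1, a copy of the proton-carrying ring subunit, at 34.3, 28.0, 35.6 and 25.8 CPM in the LPS samples and 28.2, 14.5, 22.9 and 36.2 CPM in the LPS + Tan samples (-0.28 ± 0.24 SE). Replicate 2 of the LPS + Tan group was the lowest and replicate 4 the highest, and the log2 fold change was -0.089 without the first and -0.50 without the second. Atp5mpl was at 0.26 and 0.066 without the same samples. In sequence, 48.1% of the windows of Atp5g1 are also found in the processed pseudogene Gm10039. Atp5j, a stalk subunit, had the lowest level (18.8 FPKM), where the gene length behind FPKM was 4137 bases and the matched transcript 809 bases, and its log2 fold change was -0.0019 ± 0.11 (SE).

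Complex IV held the sole nuclear subunit with an unadjusted p below 0.05. Its 16 tested nuclear genes had a median log2 fold change of 0.023. Cox4i1, the general isoform of subunit 4, was the most abundant (206 FPKM) and measured 156, 162, 152 and 157 CPM in the LPS samples and 156, 151, 136 and 189 CPM in the LPS + Tan samples (0.0098 ± 0.10 SE). The lowest estimate was that of Cox5b, a matrix-facing zinc-binding subunit, at 54.7 to 60.9 CPM in the LPS group and 49.6 to 63.6 CPM in the LPS + Tan group (-0.091 ± 0.095 SE).

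Cox4i2, the isoform of subunit 4 that responds to oxygen and is known from lung and from pericytes, lies at chr2:152753916-152765039 (GRCm38.p6) and shares no 100-base window with another gene. It measured 15.7, 11.5, 12.2 and 12.8 CPM in the LPS samples and 19.9, 12.6, 18.1 and 18.7 CPM in the LPS + Tan samples. Replicates 1, 3 and 4 of the LPS + Tan group lay above every LPS sample and replicate 2 lay within the LPS range. The log2 fold change was 0.41 ± 0.16 (SE), with an unadjusted p of 0.0250 (0.924 after Benjamini-Hochberg adjustment) in the edgeR test. The unadjusted p was below 0.05 in 14 of 20 alternatives and above it without LPS replicate 2, 3 or 4 or LPS + Tan replicate 1, 3 or 4.

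Markers of pericytes, the contractile cells wrapped around capillaries, were higher in the LPS + Tan group in 6 of 7 genes by estimate, and 2 of the 7 had an unadjusted p below 0.05, where 5.12% of all genes did. They summed to 278, 253, 292 and 262 CPM in the LPS samples and 332, 329, 320 and 250 CPM in the LPS + Tan samples. Rgs5, a defining pericyte gene, measured 44.7, 54.1, 48.7 and 47.8 CPM in the LPS samples and 69.6, 66.0, 67.2 and 66.7 CPM in the LPS + Tan samples, which do not overlap, as for 1.58% of all genes on the higher side (log2 fold change 0.47, unadjusted p 0.000124 and 0.497 after Benjamini-Hochberg adjustment in edgeR). This unadjusted p was the lowest of all 15706 genes tested, and the marker list was chosen with earlier results of these data known. The count of 2 of 7 was therefore not independent of that choice. The unadjusted p of Rgs5 was below 0.05 in 20 of 20 alternatives, and its adjusted p ranged over them from 0.000673, with DESeq2, to 0.9999. Higd1b, the other of the 2, had a log2 fold change of 0.89 with an unadjusted p of 0.0258 in the edgeR test. Of the LPS + Tan samples, replicate 2 was the lowest in Cox4i2 and in 2 of the 7 markers (Higd1b and Rgs5), replicate 4 in 4 markers (Pdgfrb, Notch3, Cspg4 and Abcc9) and in the marker sum, and replicate 1 in Kcnj8. Rgs5 spanned only 66.0 to 69.6 CPM over these samples. The part of pericyte number in the Cox4i2 level was not tested.

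**Figure D4:**
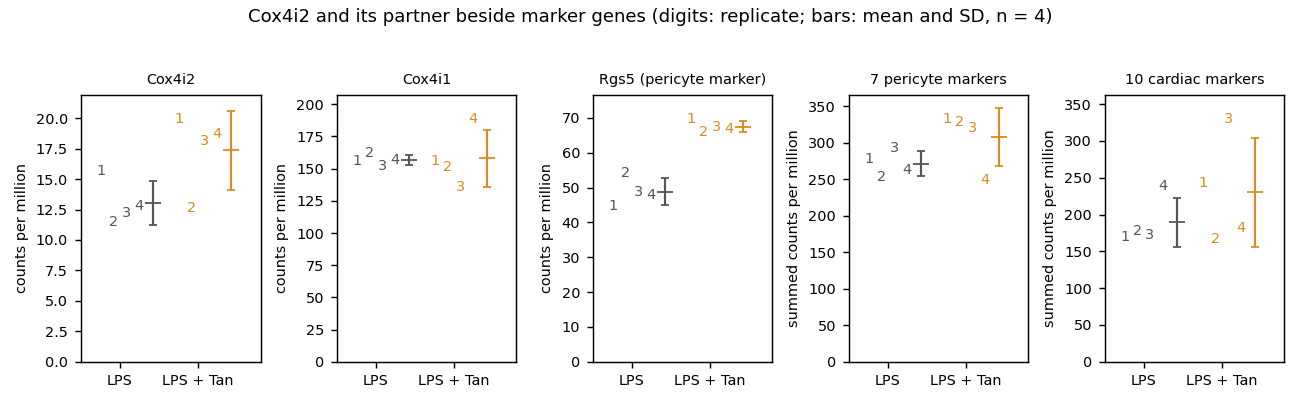
Cox4i2, its partner Cox4i1, the pericyte marker Rgs5, and the sums of 7 pericyte and 10 cardiac markers, in CPM (y axes, from 0). Digits are the replicate numbers of the LPS group (grey) and the LPS + Tan group (orange), and bars give the mean and SD of 4 mice. Cox4i2 replicates 1, 3 and 4 of the LPS + Tan group lie above the LPS samples, Cox4i1 does not separate the groups, and Rgs5 does.

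Isoforms were compared within each sample as the log2 ratio of the restricted to the general gene, which needs no scaling, with an exact two-sided permutation test over the 70 arrangements of samples (smallest possible p 0.0286) and adjustment over 6 pairs. Cox4i2 made up 8.03% ± 1.09 of the summed FPKM of the Cox4i pair in the LPS group and 10.4% ± 2.003 in the LPS + Tan group (SD, n = 4), a difference in mean log2 ratio of 0.40 (exact permutation p = 0.0857, adjusted p = 0.343). The log2 ratio was -3.32, -3.82, -3.65 and -3.62 in the LPS samples and -2.97, -3.58, -2.90 and -3.33 in the LPS + Tan samples, so that the groups overlapped. The other differences were 0.29 for Cox6a2 over Cox6a1, 0.24 for Cox6b2 over Cox6b1, 0.30 for Cox7a1 over Cox7a2, 0.044 for Cox8b over Cox8a and 0.18 for Ndufa4l2 over Ndufa4. Their exact permutation p-values lay between 0.114 and 0.943, and adjusted over the 6 pairs between 0.343 and 0.943.

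Cox6a2, Cox7a1 and Cox8b are the isoforms of heart and skeletal muscle, and Cox6b2 is best known from testis. Cox6a2 measured 4.02, 4.205, 3.34 and 3.34 CPM in the LPS samples and 3.71, 4.43, 5.35 and 4.89 CPM in the LPS + Tan samples (log2 fold change 0.30 ± 0.17 SE). Cox7a1 measured 1.202, 2.10, 1.59 and 2.51 CPM in the LPS samples and 1.97, 1.42, 2.94 and 2.68 CPM in the LPS + Tan samples (0.28 ± 0.30 SE), and Cox8b lay between 0.941 and 2.02 CPM and between 0.865 and 1.77 CPM (0.042 ± 0.31 SE). Cardiac muscle markers, of which all 10 had estimates above 0 and 0 had an unadjusted p below 0.05 by edgeR, summed to 170, 177, 172 and 238 CPM in the LPS samples and 243, 167, 330 and 182 CPM in the LPS + Tan samples. LPS + Tan replicate 3 was the highest sample in the cardiac marker sum, in Cox6a2 and in Cox7a1, while Cox8b was highest in LPS replicate 1. The atrial gene Nppa lay between 0.636 and 16.02 CPM over the 8 samples. The part of heart tissue in these levels was not tested. Ndufa4l2, a target of hypoxia-inducible factor that stands in for Ndufa4, measured 7.003 to 11.0 CPM in the LPS group and 7.63 to 11.3 CPM in the LPS + Tan group (0.21 ± 0.17 SE), and Cox6b2 lay between 2.20 and 3.11 CPM and between 2.11 and 4.13 CPM (0.26 ± 0.23 SE).

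The general partners did not separate the groups. The log2 fold changes were 0.012 ± 0.10 (SE) for Cox6a1, 0.0018 ± 0.10 for Cox6b1, -0.0031 ± 0.14 for Cox7a2, -0.013 ± 0.12 for Cox7b and 0.0034 ± 0.1 for Cox8a. Several of these estimates change sign between scalings, as listed under the dependence on processing.

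Nuclear subunits were high or low together in single samples. The level of each gene was set against its mean over the 8 samples on the log2 CPM scale, and the median over the 85 nuclear subunits was 0.065, -0.0082, -0.038 and -0.023 in the LPS samples and 0.0057, -0.15, -0.082 and 0.25 in the LPS + Tan samples. LPS + Tan replicate 4 held the highest value of the 8 samples in 67 of the 85 genes (78.8%, against 20.2% of all genes with a count in every sample), and replicate 2 the lowest in 43 (50.6%, against 14.1%). Every complex took part, with medians in LPS + Tan replicate 4 of 0.25 for complex I, 0.11 for complex II, 0.25 for complex III, 0.28 for complex IV and 0.25 for complex V. The 78 genes of the mitochondrial ribosome had a median of 0.17 in that sample.

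Short genes as a class were high in the same sample. The 809 other tested genes under 1000 bases had a median of 0.22 in LPS + Tan replicate 4 and -0.094 in replicate 2, and the 14762 other genes from 1000 bases had medians within 0.015 of 0 in every sample. Nuclear subunits under 1000 bases (51 genes) had a median of 0.30 in replicate 4, and those from 1000 bases (34 genes) 0.18. The part of gene length or RNA quality in these levels was not tested. Taken relative to the tested genes of their own length class, an alternative chosen after seeing the data, the median log2 fold change of the nuclear subunits was -0.0057.

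**Figure D5:**
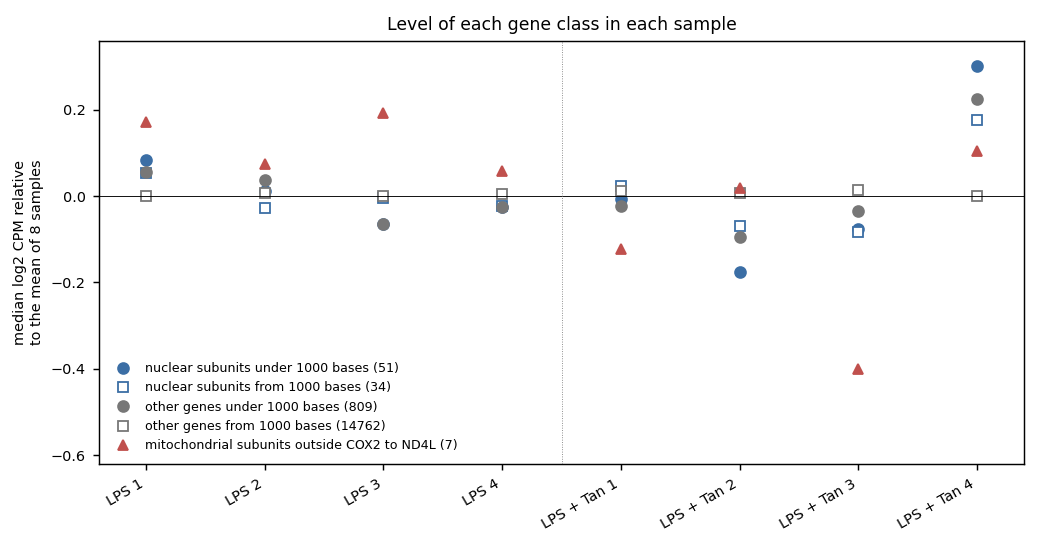
Median log2 CPM relative to the mean of 8 samples (y axis) in every sample (x axis), for nuclear subunits (blue), other tested genes (grey) and the 7 mitochondrial subunits outside the stretch from COX2 to ND4L (red). Filled circles are genes under 1000 bases and open squares genes from 1000 bases. LPS + Tan replicate 4 is the highest sample for nuclear subunits and for other short genes, and replicate 3 is the lowest for the mitochondrial subunits (-0.40).

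What the nuclear subunits share in sequence was read from RefSeq promoters (GRCm38.p6, from 250 bases before to 50 bases after the start), with 1 promoter for each gene and both strands searched. A promoter was found for 69 of the 87. The site of NRF1 (nuclear respiratory factor 1, a different protein from the antioxidant factor Nrf2 that the study followed), written GCGCATGC, stood in 10 of 69 (14.5%) against 2.81% of all 27025 promoters. The site of YY1, AAGATGGC, stood in 9 (13.04% against 2.88%), and that of GABPA, CCGGAAGT, in 5 (7.25% against 4%). The SP1 site GGGGCGG (27.5% against 23.4%), CCAAT (42.03% against 37.9%) and TATAAA (10.1% against 14.2%) were closer to the share of all promoters. Over the 250 bases before the start, the median GC content was 56.4% against 52%, with a median of 14 CpG pairs against 6. A match is a description of letters and not a site shown to be bound, and the motifs can overlap CpG-rich stretches.

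The 250 bases before the start are printed for Cox6a1 (chr5:115348959-115349208, minus strand) and for Atp5b (chr10:128083057-128083306, plus strand). The Cox6a1 promoter holds a single stretch that matches the NRF1 site on both strands. That of Atp5b, the most abundant nuclear member, holds 5 CCAAT matches and an SP1 match. Capitals mark the matches on either strand. The log2 fold changes of both genes were small, at 0.012 ± 0.10 (SE) for Cox6a1 and 0.036 ± 0.088 (SE) for Atp5b.
Cox6a1: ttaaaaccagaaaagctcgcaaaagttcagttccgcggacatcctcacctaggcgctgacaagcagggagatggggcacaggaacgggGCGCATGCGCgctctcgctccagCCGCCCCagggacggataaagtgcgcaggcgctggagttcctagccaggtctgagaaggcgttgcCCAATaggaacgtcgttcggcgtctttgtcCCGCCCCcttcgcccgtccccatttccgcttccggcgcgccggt
Atp5b: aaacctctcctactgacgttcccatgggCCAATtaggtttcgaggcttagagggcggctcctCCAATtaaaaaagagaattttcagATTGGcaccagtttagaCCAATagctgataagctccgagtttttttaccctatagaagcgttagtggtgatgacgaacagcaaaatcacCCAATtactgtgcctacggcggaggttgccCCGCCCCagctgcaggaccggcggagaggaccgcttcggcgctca

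The genes that build and serve the complexes were counted in 7 lists. The list of electron carriers also holds the subunits Ndufab1 and Cyc1, whose symbols fall outside the member names. Of 48 tested assembly factors, which mature and insert the subunits, 26 were above 0 and 22 below, and 1 had an unadjusted p below 0.05, where 5.12% of all genes did. This was Cox15, which makes the heme A of complex IV, at 25.8, 23.8, 29.1 and 28.3 CPM in the LPS samples and 21.9, 24.03, 22.9 and 22.1 CPM in the LPS + Tan samples, where all but replicate 2 lay below every LPS sample. Its log2 fold change was -0.24 ± 0.088 (SE), with an unadjusted p of 0.0235 (0.924 after Benjamini-Hochberg adjustment) in the edgeR test. The highest estimate of the list was that of Cox16, at 0.559 to 1.92 CPM (0.34 ± 0.35 SE). The groups separated for 1 assembly factor, on the higher side, where 1.58% of all genes did: Uqcc3, of complex III assembly and named after its values were seen, at 13.7 to 14.7 CPM in the LPS group and 14.9 to 16.5 CPM in the LPS + Tan group (0.14 ± 0.086 SE).

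None of 24 electron carriers and inner membrane exchangers, 29 genes of mitochondrial DNA copying, transcription and translation, 78 mitochondrial ribosome genes, 22 citric acid cycle genes, or 7 replacement subunits and uncoupling proteins had an unadjusted p below 0.05 by edgeR's quasi-likelihood test. Their median log2 fold changes were 0.018, 0.059, 0.032, -0.0051 and -0.13. The groups separated for 3 of the 29 genes of mitochondrial DNA copying, transcription and translation, with Polg and Mtif3 on the higher and Tfam on the lower side, and for 1 of the 78 ribosome genes, Mrpl22 on the higher side, all named after their values were seen. Of all genes, 1.58% separated on the higher and 1.15% on the lower side. The ends of these lists were Coq6 (0.20 ± 0.14 SE) and Coq4 (-0.25 ± 0.18), both of coenzyme Q synthesis, Polg2 (0.25 ± 0.20), of the mitochondrial DNA polymerase, and Tfb2m (-0.21 ± 0.11), a transcription factor of the organelle. For the ribosome they were Mrpl28 (0.21 ± 0.15 SE) and Mrps10 (-0.27 ± 0.26), and for the citric acid cycle Idh2 (0.12 ± 0.092), an isocitrate dehydrogenase, and Pdk3 (-0.19 ± 0.10), an inhibitor of pyruvate dehydrogenase. Chchd10 had the highest estimate of the replacement and uncoupling list (0.19 ± 0.13 SE). AA467197, known as a stand-in for Ndufa4 in inflammation, had the lowest, at 111, 89.4, 144 and 86.2 CPM in the LPS samples and 17.6, 87.6, 32.3 and 134 CPM in the LPS + Tan samples (-0.66 ± 0.51 SE). Replicates 1 and 3 of the LPS + Tan group were low and replicates 2 and 4 were within the LPS range.

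Among the 18 tested regulators of mitochondrial biogenesis, 12 were above 0 and 6 below, and 1 had an unadjusted p below 0.05 (5.12% of all genes). Ppargc1a, the coactivator that drives nuclear subunit transcription together with NRF1 and GABPA, measured 2.79, 3.09, 3.06 and 3.01 CPM in the LPS samples and 3.57, 4.25, 5.06 and 3.41 CPM in the LPS + Tan samples. All 4 LPS + Tan samples were above all 4 LPS samples, with replicate 3 the highest and replicate 4 the nearest to the LPS range. Its log2 fold change was 0.45 ± 0.17 (SE), with an unadjusted p of 0.0251 (0.924 after Benjamini-Hochberg adjustment) in the edgeR test. The groups also separated on the lower side for Ppara, a fatty acid receptor named after its values were seen, at 6.92 to 7.17 CPM in the LPS group and 5.30 to 6.82 CPM in the LPS + Tan group (-0.25 ± 0.13 SE). The groups did so for 1.58% of all genes on the higher and 1.15% on the lower side. The highest estimate was that of Perm1, a muscle coregulator, at 0.355 to 1.18 CPM (0.57 ± 0.37 SE), and the lowest that of Hif1a, the oxygen-sensing factor, at 427, 485, 746 and 440 CPM in the LPS samples and 245, 636, 239 and 285 CPM in the LPS + Tan samples (-0.58 ± 0.32 SE).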

How the data were processed

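RNA was sequenced from whole lung of 8 mice, 4 per group, grouped by the treatment given in the labels. The authors deposited raw read counts per gene and FPKM values, with builds GRCm38 and mm10 named in the submitters' processing notes. Not given in the sources used here were the aligner, the counter, its use of strand and its treatment of reads with several matches. The labels and the study's methods name different RNA extraction and library kits. Totals of 38895654 to 39931970 counts per sample set the counting precision. In the deposited FPKM values the implied gene length was the same in every sample.

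Counts were tested with the quasi-likelihood test of edgeR 4.0.16 (R 4.3.3; filterByExpr, TMM) on all genes, with Benjamini-Hochberg adjustment. Alternatives used DESeq2 1.42.0, limma 3.58.1 (voom, or log2 FPKM with a pseudocount of 1 or 0.1), other scalings, filters, a replicate block and each sample left out. Isoform ratios were tested by exact permutation (scipy 1.17.1). The fit was tested on simulated data. Shared windows of 100 bases were searched in GENCODE transcripts, and promoters were read from RefSeq.

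Named were all mitochondrial subunits, both genes of each isoform pair and, per complex, nuclear subunits at an unadjusted p below 0.05 or with the highest or lowest log2 fold change or FPKM. In pathway lists they were genes at an unadjusted p below 0.05 or at either end of the fold changes. Marker genes were named after their values were seen. Members and lists were chosen with earlier results of these data known.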

Additional observations from a re-analysis of the deposited data

Results flagged for a closer look

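In 7 of 116 groups of 4 samples, a sample lay so far from the other 3 that its gap, as a share of the group's whole range, passed Dixon's 95% limit, where chance gives about 5.8. Among members, the gap was 0.884 for Atp5j (LPS replicate 1 high), 0.853 for Cox5b (LPS + Tan replicate 4 high), 0.843 for Cox8b (LPS + Tan replicate 2 low) and 0.882 for ND5 (LPS replicate 3 high), all on the log2 CPM scale. It was 0.873 for the log2 ratio of Cox6b2 to Cox6b1, where LPS + Tan replicate 3 was low. Among marker sums, it was 0.890 for cardiac muscle markers (LPS replicate 4 high) and 0.856 for pericyte markers (LPS + Tan replicate 4 low). The log2 fold change of ND5 without LPS replicate 3 was -0.28, and that of Cox5b without LPS + Tan replicate 4 was -0.18.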

How the results depend on the processing

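No member passed an adjusted p of 0.05 or the joint threshold in any alternative. The number of nuclear subunits higher at an unadjusted p below 0.05 was 1, and became 2 with total counts alone and 3 with limma on log2 FPKM at either pseudocount, while the higher calls over all genes went from 451 to 653 and to 644 or 639. The number of mitochondrial subunits lower at that threshold was 2, and became 1 with total counts alone and 1 with genes of at least 5 CPM. The lower calls over all genes went from 353 to 239 with total counts alone. They were 253 with genes of at least 5 CPM, where fewer genes, 11255, were tested. Deviations from the group means had correlations of 0.12, -0.031, -0.15 and 0.020 between same-numbered samples. Between differently numbered samples they lay from -0.21 to 0.22. The labels do not say whether the numbers pair the samples, and these values cannot decide it. With the replicate block the mitochondrial count was 0, while the lower calls over all genes were 429. The log2 fold changes were then -0.34 for ND5 and -0.48 for ND4L. Leaving out each sample in turn gave 0 to 2 nuclear subunits higher, 0 to 4 nuclear subunits lower and 0 to 4 mitochondrial subunits lower. Over all genes, these settings gave 268 to 820 higher and 212 to 806 lower calls, the fewest without LPS + Tan replicate 1 and the most without replicate 2. The nuclear median then ranged from -0.069 (without LPS + Tan replicate 4) to 0.059 (without LPS + Tan replicate 2), and the mitochondrial median from -0.24 to -0.089.

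Differences in isoform ratio ranged, with each sample left out, from 0.30 to 0.53 for Cox4i2, 0.17 to 0.37 for Cox6a2, 0.15 to 0.39 for Cox6b2, 0.046 to 0.47 for Cox7a1, -0.12 to 0.24 for Cox8b and 0.090 to 0.30 for Ndufa4l2. Log2 fold changes near 0 changed sign in some alternatives, and the cause was not tested. With total counts alone, limma at a pseudocount of 1 and limma at 0.1, they were 0.036, 0.027 and 0.028 for Atp5j, 0.012, 0.0025 and 0.0024 for COX3, 0.033, 0.024 and 0.024 for Cox7a2, 0.026, 0.018 and 0.018 for Cox7b, and 0.017, 0.017 and 0.018 for Sdha. With upper quartile scaling they were 0.0097 for Atp5j and 0.0083 for Cox7a2. With DESeq2, voom, RLE scaling, no count filter, at least 5 CPM and the replicate block, they were -0.0032, -0.0052, -0.0035, -0.0040, -0.0027 and -0.0054 for Cox6b1, and -0.0012, -0.00028, -0.0015, -0.0021, -0.0011 and -0.00029 for Cox8a. Cox4i1 was at -9.7e-05 with the block. Others changed sign with a sample left out, over ranges of -0.36 to 0.024 for ATP8, -0.0047 to 0.061 for Atp5b, -0.12 to 0.063 for Atp5j, -0.15 to 0.061 for COX3, -0.086 to 0.074 for Cox4i1, -0.085 to 0.060 for Cox6a1, -0.088 to 0.069 for Cox6b1, -0.15 to 0.080 for Cox7a2, -0.13 to 0.071 for Cox7b, -0.083 to 0.050 for Cox8a, -0.11 to 0.26 for Cox8b, -0.16 to 0.048 for ND3, -0.074 to 0.12 for Ndufa4, -0.028 to 0.062 for Sdhb, -0.035 to 0.069 for Sdhd and -0.0071 to 0.17 for Uqcrh.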

Other observations

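Within the mitochondrial subunits, ND5 was set against ND1, a ratio chosen after its values were seen that needs no scaling. ND5 counts were 0.713, 0.765, 0.723 and 0.729 of ND1 counts in the LPS samples and 0.701, 0.689, 0.598 and 0.579 in the LPS + Tan samples. All 4 LPS samples lay above all 4 LPS + Tan samples, and replicates 3 and 4 of the LPS + Tan group were the lowest. The same ratio for CYTB was 1.19, 1.17, 1.09 and 1.12 in the LPS samples and 1.05, 1.04, 0.993 and 1.15 in the LPS + Tan samples, where replicate 4 lay within the LPS range. For COX1 over ND1 the LPS samples spanned 2.93 to 3.504 and the LPS + Tan samples 3.24 to 3.71. The other ratios to ND1 overlapped too. ND4 spanned 0.448 to 0.535 in the LPS group and 0.435 to 0.512 in the LPS + Tan group. ND2 spanned 0.606 to 0.696 and 0.588 to 0.655, and ND6 0.0151 to 0.0178 and 0.0111 to 0.0204. Only the ND5 ratio separated, and ND5 was already the sole member whose CPM values did so. How often such ratios separate over all genes was not counted.

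The gene length behind FPKM was over 1.5 times the matched transcript for 8 of 86 nuclear subunits. With the transcript length instead, Atp5j rose from 18.8 to 95.9 FPKM, Cox5a from 19.8 to 97.0 FPKM and Ndufa11 from 8.94 to 25.9 FPKM, which moves their place among the complexes without touching any fold change. Cox5a was named after its values were seen.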
